A study of Homo sapiens with 6 samples.

Results

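The E2F activator genes E2F1, E2F2 and E2F3, the repressor gene E2F6, the late repressor genes E2F7 and E2F8, and the partner genes TFDP1 and TFDP2 were followed in A375 cells, an established human melanoma line that carries the V600E allele of the kinase gene BRAF. The genes were chosen by name from those of the E2F and DP family, with earlier results of these data known. Probe sets that name exactly 1 gene symbol were used, and all 8 genes were measured among the 18417 genes of the array. Each had a single such probe set, so isoforms of a gene (for example the long and short forms of E2F3) were not separated. Cells were exposed for 24 h to 10 µM vemurafenib, an inhibitor of mutant BRAF, or to vehicle (0.1% DMSO), with 3 arrays in each group. Dishes for the replicates came from separate cell stocks on separate days, and 250 ng of total RNA per sample went into biotin labelling for Affymetrix arrays of 1 colour. All samples are of 1 cell line, with no genotype, or agent other than the drug and DMSO, that differs between the groups in the labels. DMSO is given for the vehicle arrays only, and whether the vemurafenib arrays had it is not stated there. The comparison asked what the drug changed in these genes.

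Most E2F proteins bind DNA as dimers with a DP protein and set the transcription of genes for entry into S phase. The activators E2F1, E2F2 and E2F3 are held in check by the retinoblastoma protein until cyclin-dependent kinases phosphorylate it, a step that growth signals (in BRAF-mutant melanoma those of the MEK and ERK kinases) promote by raising cyclin D. E2F6 represses without a pocket protein, as part of Polycomb complexes. E2F7 and E2F8 have a pair of DNA-binding domains, need no DP partner, are themselves made from E2F-driven genes and later in the cycle repress E2F1 and other targets. TFDP1 and TFDP2 encode the DP partners.

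The proximal promoters are shown because 7 of the 8 genes fell together and several of them are known E2F targets themselves. RefSeq promoters (GRCh38.p14, 250 bases before to 50 after a transcript start) were matched for 7 of the 8 genes by symbol, 10 promoters in all, and E2F8 was not among them. Capitals mark matches to the E2F site, searched on both strands as TTTCCCGC, TTTCGCGC, TTTGCCGC or TTTGGCGC.
E2F1 promoter, chr20:33686336-33686635, minus strand: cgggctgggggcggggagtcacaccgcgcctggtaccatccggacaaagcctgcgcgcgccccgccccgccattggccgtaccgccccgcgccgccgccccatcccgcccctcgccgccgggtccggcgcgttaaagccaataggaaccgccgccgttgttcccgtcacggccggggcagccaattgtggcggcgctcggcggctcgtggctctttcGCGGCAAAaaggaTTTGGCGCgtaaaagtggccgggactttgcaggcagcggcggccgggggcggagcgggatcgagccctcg
E2F2 promoter, chr1:23531184-23531483, minus strand: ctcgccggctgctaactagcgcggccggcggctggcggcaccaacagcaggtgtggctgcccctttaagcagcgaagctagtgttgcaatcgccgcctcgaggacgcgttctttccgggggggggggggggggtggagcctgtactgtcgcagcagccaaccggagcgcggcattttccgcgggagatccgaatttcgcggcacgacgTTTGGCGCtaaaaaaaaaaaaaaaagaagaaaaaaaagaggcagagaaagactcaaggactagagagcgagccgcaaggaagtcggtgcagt
E2F3 promoter, chr6:20401629-20401928, plus strand: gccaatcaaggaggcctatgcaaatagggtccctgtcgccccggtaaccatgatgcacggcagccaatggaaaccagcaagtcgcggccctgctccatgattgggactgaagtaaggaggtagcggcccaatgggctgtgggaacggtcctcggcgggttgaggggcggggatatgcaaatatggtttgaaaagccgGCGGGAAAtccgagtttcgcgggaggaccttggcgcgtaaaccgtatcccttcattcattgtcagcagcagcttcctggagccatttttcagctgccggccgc
TFDP1 promoter, chr13:113584503-113584802, plus strand: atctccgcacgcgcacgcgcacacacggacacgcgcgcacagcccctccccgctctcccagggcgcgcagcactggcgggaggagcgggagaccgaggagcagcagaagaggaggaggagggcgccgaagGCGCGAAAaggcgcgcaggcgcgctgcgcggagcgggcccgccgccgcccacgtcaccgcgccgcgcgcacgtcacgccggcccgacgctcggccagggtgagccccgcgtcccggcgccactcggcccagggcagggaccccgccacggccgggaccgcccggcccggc
E2F7 promoter, chr12:77065520-77065819, minus strand: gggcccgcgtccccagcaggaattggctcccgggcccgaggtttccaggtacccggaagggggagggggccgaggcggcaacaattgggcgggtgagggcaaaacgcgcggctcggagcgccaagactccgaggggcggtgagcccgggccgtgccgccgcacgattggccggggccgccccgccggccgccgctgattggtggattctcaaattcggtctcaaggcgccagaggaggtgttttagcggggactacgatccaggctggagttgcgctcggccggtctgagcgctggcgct
The E2F1 promoter held 2 matches, TTTGCCGC on the opposite strand and TTTGGCGC on the gene's own, starting 33 and 20 bases before the transcript start. E2F2 held 1 match (TTTGGCGC, 42 bases before the start), the upstream E2F3 promoter 1 (TTTCCCGC on the opposite strand, 53 bases before) and TFDP1 1 (TTTCGCGC on the opposite strand, 120 bases before). No match was in these windows of E2F7, E2F6, the second E2F3 promoter or the 3 TFDP2 promoters. The upstream E2F3 promoter and 2 of the 3 TFDP2 promoters also held TTTGAA, the core of the cell cycle genes homology region. Among all 35116 promoters of that table, 3.31% held an E2F site and 15.2% held TTTGAA. A match is a run of letters and not a measured binding site.

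With vemurafenib, 7 of the 8 genes fell and TFDP2 did not pass the test. By array values E2F7, E2F8 and E2F1 were 3.46-fold, 3.21-fold and 3.03-fold lower than in vehicle, E2F2 was 2.09-fold lower, and E2F3, E2F6 and TFDP1 were 1.59-fold, 1.47-fold and 1.45-fold lower. Changes were tested 2-sided with limma on the deposited log2 levels, with p-values adjusted by Benjamini and Hochberg's method across the 18417 genes and a threshold of 0.05. Of all genes tested, 45.5% passed, 22.2% lower and 23.2% higher, against 7 of these 8 lower and 0 higher. At least 2-fold falls were seen for 4 of the 8 and for 2.62% of all genes. The median change was -0.87 over the 8 genes and -0.05 over all genes (log2, vemurafenib minus vehicle). In bulk RNA, fewer cells in a stage of the cycle and less RNA per cell cannot be told apart.

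**Figure D1:**
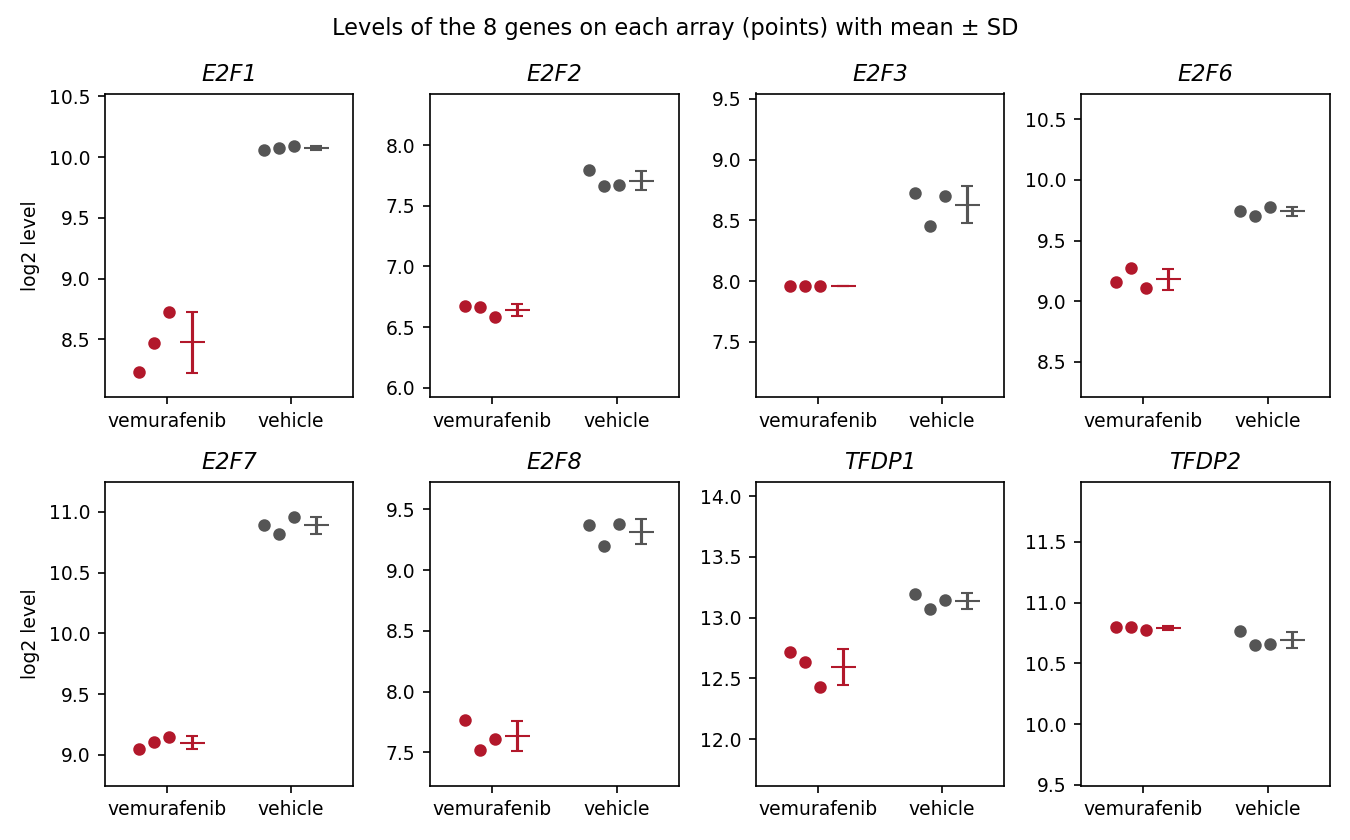
Log2 level of each gene on every array, vemurafenib (red) left of vehicle (grey), with the mean and SD over 3 arrays beside the points. Each panel spans the same number of log2 units around its own centre. The vemurafenib arrays lie below the vehicle arrays in every panel but that of TFDP2.

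The 6 arrays had near-equal distributions. Their medians lay between 7.69 and 7.73, and single values ran from 2.67 to 14.56. Precision is limited by the 3 arrays in a group, and the limma standard errors also draw on the variance of all genes. Of all genes, 4281 were called higher and 4090 lower; after centring each array on its median the split was 3682 and 5630. Of 7 reference genes 3 fell and 1 rose, against 22.2% and 23.2% of all genes. HPRT1 changed by -0.84 and B2M by 0.41, while GAPDH stood at 14.36 and 14.35 in vemurafenib and vehicle (limma adjusted p 0.880). The falls of ACTB (-0.23) and PPIA (-0.30) did not pass without any 1 array other than vemurafenib replicate 1 (ACTB, 0.0666 to 0.108), or without vehicle replicate 1, vehicle replicate 2 or vemurafenib replicate 3 (PPIA, 0.0504 to 0.0972). TBP, at -0.26 (limma adjusted p 0.0512), passed without vehicle replicate 2 or vemurafenib replicate 3 (0.0382 and 0.00864). The melanoma identity of the cells showed in SOX10, a pigment lineage transcription factor, at 11.78 in vemurafenib and 11.48 in vehicle, and in MITF at 10.91 and 10.17. The pigment genes PMEL, MLANA and TYR lay in the dimmest 25% of genes in both groups. All 3 endothelial and all 3 leukocyte markers measured were that dim in both groups, as were 1 of 4 keratinocyte and 1 of 4 fibroblast markers. Summed log2 levels of the keratinocyte markers were 29.50 to 30.59 with vemurafenib and 29.64 to 30.22 in vehicle, and those of the fibroblast markers 31.11 to 31.90 and 30.23 to 31.09, with LUM higher by 1.13 and the other three between -0.24 and 0.01, of which none passed. Their part in the results was not tested.

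Of the activators, E2F1 had the largest measured change. Its log2 level was 8.23, 8.47 and 8.72 on the vemurafenib arrays, against 10.06, 10.07 and 10.09 on the vehicle arrays. The vehicle arrays were nearly identical, whereas the vemurafenib arrays spread over 0.50, and the groups were separated by a gap of 1.33. The mean was 8.47 ± 0.25 with vemurafenib and 10.07 ± 0.015 in vehicle (SD, n = 3 each), a change of -1.60 (SE 0.11, limma adjusted p 4.14e-07) or 3.03-fold. E2F1 is the activator best known for driving S phase and, when unrestrained, cell death.

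E2F2, a second activator with overlapping targets, read 6.67, 6.67 and 6.58 with vemurafenib, against 7.79, 7.66 and 7.67 in vehicle. These groups were apart by 0.99, whereas the vehicle arrays spread over 0.13. The change was -1.07 (SE 0.07, limma adjusted p 4.25e-07). The vemurafenib mean of 6.64 was as low as the dimmest 25% of genes (up to 6.87), where signal over background was not established, so 2.09-fold is a ratio of array values that background can limit.

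E2F3, the remaining activator, read 7.96 on each of the 3 vemurafenib arrays, against 8.73, 8.46 and 8.70 in vehicle. Here the spread lay on the vehicle side, with vehicle replicate 2 the lowest, and the groups did not overlap. The change was -0.67 (SE 0.08, limma adjusted p 5.26e-05), with a 95% interval of -0.85 to -0.48.

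E2F6, which lacks the domains for activation and for pocket protein binding, read 9.16, 9.28 and 9.11 with vemurafenib, against 9.74, 9.70 and 9.78 in vehicle. All vemurafenib arrays were lower than all vehicle arrays, by at least 0.43. The change was -0.56 (SE 0.07, limma adjusted p 7.31e-05), or 1.47-fold.

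Of the late repressors, E2F7 had the largest measured change of the 8 genes. E2F8 could not be ranked against E2F7 or E2F1, and E2F7 was not compared with E2F1. E2F7 stood at 9.05, 9.11 and 9.15 on the vemurafenib arrays and at 10.89, 10.82 and 10.96 on the vehicle arrays. Both groups were tight and lay 1.67 apart. Its change was -1.79 (SE 0.07, limma adjusted p 9.35e-09), or 3.46-fold, rank 198 of 18417 genes by size of change. E2F8, its closest relative, stood at 7.77, 7.52 and 7.61 with vemurafenib and at 9.37, 9.20 and 9.38 in vehicle. Those groups were 1.43 apart, with more spread within each than for E2F7. Its change was -1.68 (SE 0.09, limma adjusted p 5.31e-08), or 3.21-fold, rank 248, and E2F1 had rank 292.

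Of the DP partner genes, TFDP1 passed the test and TFDP2 did not. TFDP1, the main partner in many cell types, read 12.72, 12.64 and 12.43 with vemurafenib, against 13.20, 13.07 and 13.14 in vehicle. The lowest was vemurafenib replicate 3, and the groups did not overlap. Its change was -0.54 (SE 0.09, limma adjusted p 0.000321). TFDP2 read 10.80, 10.80 and 10.78 with vemurafenib, against 10.77, 10.65 and 10.66 in vehicle. Its vemurafenib arrays were the higher ones, but by a gap of only 0.0098, and the change of 0.10 (SE 0.07, 95% interval -0.05 to 0.25) did not pass (limma adjusted p 0.263). Among all genes 28.5% had vemurafenib arrays wholly below the vehicle arrays, against 7 of these 8, and 55.4% had groups apart in either direction.

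**Figure D2:**
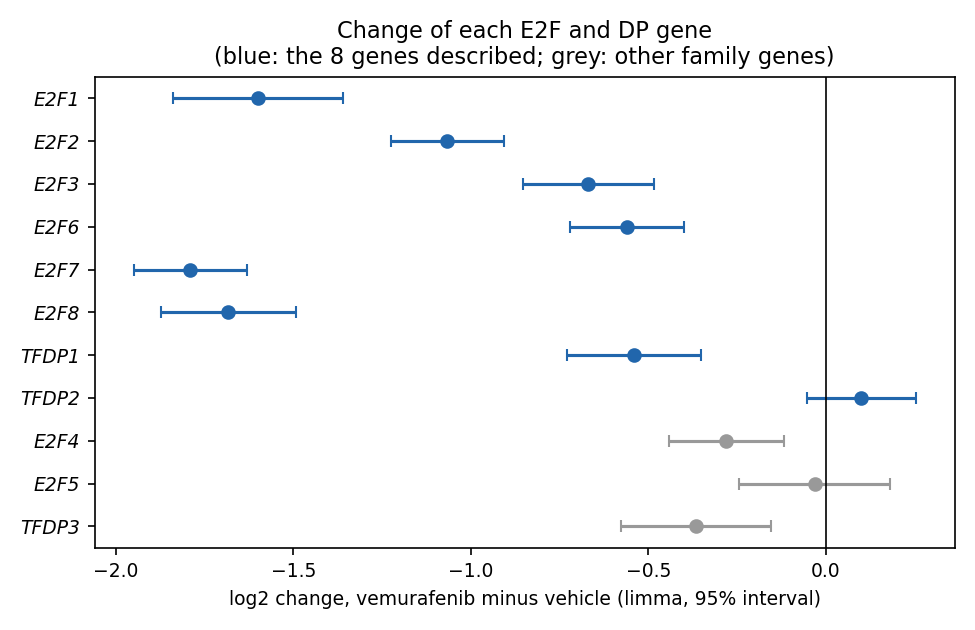
Log2 change (vemurafenib minus vehicle) of each gene with its 95% interval from limma over 3 arrays a group, the 8 genes described in blue and the other family genes in grey. E2F7, E2F8 and E2F1 lie between -1.79 and -1.60, E2F3, E2F6 and TFDP1 between -0.67 and -0.54, and the interval of TFDP2 includes 0.

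Whether family members changed unequally was examined through the difference of their log2 levels within each array, in 6 pairs, by an exact 2-sided permutation test over the arrays, whose smallest possible p with 3 against 3 arrays is 0.1. The change of E2F1 minus that of E2F3 was -0.93 (SE 0.17), and minus that of E2F2 it was -0.53 (SE 0.18), with the limit on E2F2 given above. The change of E2F2 minus that of E2F3 was -0.40 (SE 0.07), with the same limit on E2F2. For TFDP1 minus TFDP2 the difference was -0.64 (SE 0.08). In these 4 pairs the within-array differences did not overlap between the groups and the exact p was 0.1, or 0.15 adjusted over the 6 pairs. No pair could therefore pass 0.05. The change of E2F8 minus that of E2F7 was 0.11 (SE 0.10, exact p 0.5) and minus that of E2F1 -0.08 (SE 0.21, exact p 0.7), with groups that overlapped in both pairs. The E2F8 and E2F1 pair turned sign when single arrays were left out (from -0.27 to 0.05), so these data give no order between them.

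The genes with profiles most like the strongest movers were found from the root mean square difference of the 6 array levels, each gene centred on its own mean, a measure that the drug difference dominates. Closest to E2F1 were PHLDA1 (0.083) and AJAP1 (0.12), and closest to E2F7 were AJAP1 (0.056) and the transcription factor gene TFAP2C (0.063). As for E2F1, the vemurafenib arrays of PHLDA1 were spread, at 9.99, 10.12 and 10.44, against 11.59, 11.66 and 11.64 in vehicle. Closest to E2F8 were the chloride channel gene ANO1 (0.035) and MCM4 (0.037), a subunit of the replicative helicase. E2F2 lay closest to the myosin gene MYO19 (0.025) and to the membrane protein gene EMP1 (0.028). E2F7 and E2F8 were 0.11 apart, and TFDP1 lay 0.080 from E2F6, the closest pair among the 8 genes.

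Of the family genes outside the 8, E2F4 and TFDP3 fell and E2F5 did not pass. E2F4, the main E2F of repressor complexes in resting cells, averaged 11.39 ± 0.06 with vemurafenib and 11.67 ± 0.07 in vehicle (SD, n = 3 each), a change of -0.28 (SE 0.07, limma adjusted p 0.00857). E2F5, another such repressor, averaged 8.75 ± 0.04 and 8.78 ± 0.20 (limma adjusted p 0.813). TFDP3, a DP gene known mainly from testis, changed by -0.37 at levels of 5.68 and 6.04 that were within the dimmest 25% of genes.

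Of 34 measured E2F target genes of S phase, 34 fell and 0 rose, with a median change of -1.60 against -0.05 for all genes. The list was chosen with earlier results of these data known, so its comparison with all genes is a description only. The smallest change was that of CCNE1 (-0.66) and the largest measured that of DTL, the substrate receptor of a ubiquitin ligase that guards against re-replication. DTL averaged 8.91 ± 0.07 with vemurafenib and 12.11 ± 0.06 in vehicle (SD, n = 3 each), a change of -3.19. CLSPN, the checkpoint protein claspin, changed by -2.97, but its vemurafenib mean of 6.66 was within the dimmest 25% of genes, so background can limit that value and its order against DTL. MCM10, a replication initiation factor, changed by -2.83, and CCNE2, the cyclin E2 gene, by -2.60. All 34 had vemurafenib arrays wholly below their vehicle arrays, as had 28.5% of all genes. Of 5 measured cell death genes known as E2F1 targets, 3 fell, against 22.2% of all genes. These were PMAIP1 (-2.20, at 7.30 with vemurafenib), the p53 relative TP73 (-0.71) and BID (-0.63). APAF1, a core of the apoptosome, averaged 8.67 and 8.74, and BBC3 8.53 and 8.56, in vemurafenib and vehicle, and neither passed (limma adjusted p 0.579 and 0.872).

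**Figure D3:**
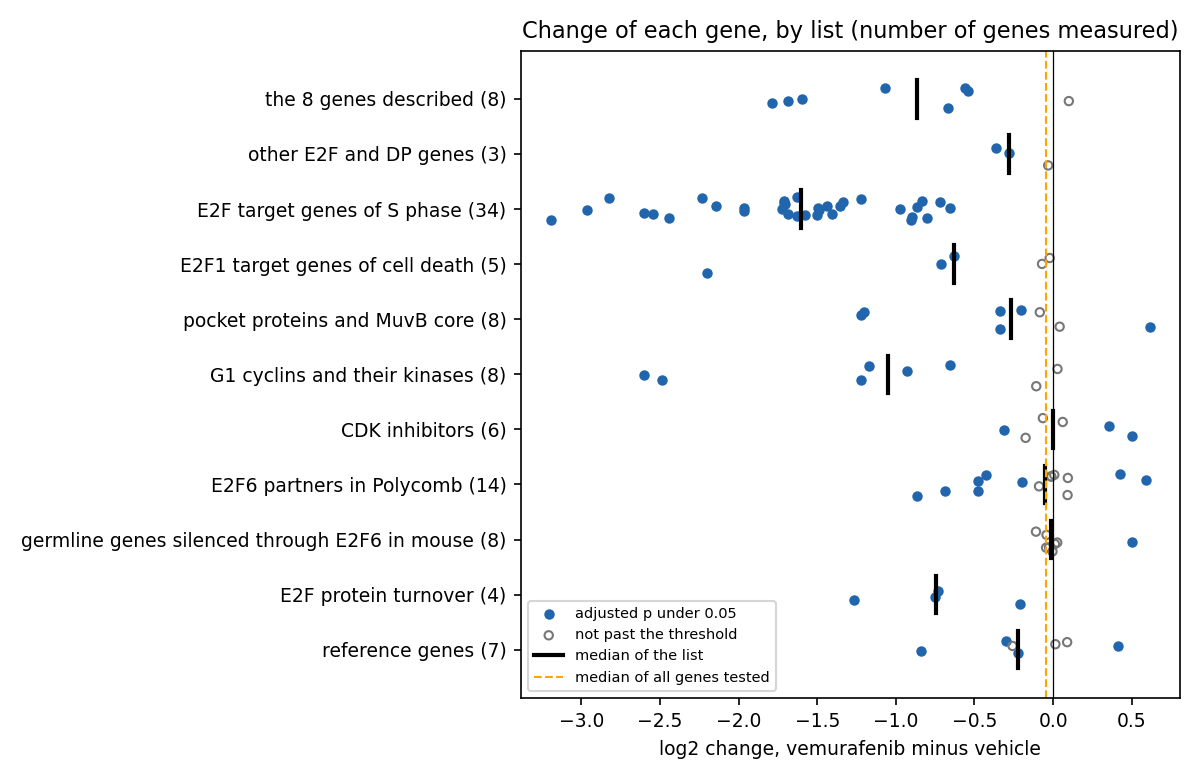
Log2 change (vemurafenib minus vehicle) of each gene by list, filled where the limma adjusted p was under 0.05, with the median of each list as a black bar and that of all genes as a dashed line. The S phase targets run from -3.19 to -0.66, all filled, while the CDK inhibitors and the Polycomb partners lie on both sides of 0.

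Of 8 G1 cyclins and kinases, 6 fell and 0 rose, against 22.2% and 23.2% of all genes. The falls included CCND1, the cyclin D1 gene (-2.49), CDK2 (-1.22), CDK6 (-1.17) and CCND3 (-0.93). CCNE2 (-2.60) and CCNE1 (-0.66) also fell, and both were counted among the S phase targets above. CDK4 averaged 13.02 ± 0.08 with vemurafenib and 12.99 ± 0.02 in vehicle (SD, n = 3 each; limma adjusted p 0.776). Of 6 CDK inhibitors measured, CDKN1A (0.50) and CDKN1B (0.35), the genes of p21 and p27, rose and CDKN2D (-0.31) fell. That share of genes passing is close to the 45.5% of all genes.

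Among 8 genes of pocket proteins and their MuvB partners, 5 fell and 1 rose, against 22.2% and 23.2% of all genes. RB1, the retinoblastoma gene, averaged 11.76 ± 0.06 with vemurafenib and 11.85 ± 0.08 in vehicle (limma adjusted p 0.381; SD, n = 3 each). RBL1, which encodes p107 and is an E2F target itself, counted among the S phase targets above too, changed by -1.22. RBL2, which encodes p130 of resting cells, changed by 0.61. LIN9, a MuvB subunit, changed by -1.20, and LIN54, LIN52 and RBBP4 by -0.34, -0.34 and -0.20. The call of RBBP4 ended when any 1 array other than vehicle replicate 2 was left out (limma adjusted p 0.0642 to 0.172). All 4 genes of E2F protein turnover fell, against 22.2% of all genes. Among them were CCNF, the cyclin F gene whose product marks E2F proteins for breakdown (-1.26), and SKP2 (-0.75). FZR1 changed by -0.21 (limma adjusted p 0.0452), a call that ended without any 1 array other than vemurafenib replicate 3 (0.0527 to 0.152).

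E2F6 acts with the MGA and MAX proteins in a Polycomb complex. Of 14 partner genes measured, 6 fell and 2 rose, against 22.2% and 23.2% of all genes. Their median was -0.05, the same as for all genes to 2 decimals. PCGF6, the subunit particular to that complex, changed by -0.86 and WDR5 by -0.69, whereas RING1 and RYBP rose by 0.59 and 0.43. CBX1, HDAC2 and CBX3 also fell, by -0.48, -0.48 and -0.43. The smallest of the 6 falls, L3MBTL2 at -0.20 (limma adjusted p 0.0367), did not pass without any 1 array other than vehicle replicate 2 (0.0526 to 0.119). MGA, the scaffold, averaged 10.03 and 10.02 in vemurafenib and vehicle (limma adjusted p 0.949). Of 8 germline genes that this complex is known to silence in mouse, 7 lay within the dimmest 25% of genes in both groups. Of the 8, 1 rose and 0 fell, against 23.2% and 22.2% of all genes. The gene that rose was STK31, at 5.69 ± 0.11 with vemurafenib and 5.19 ± 0.08 in vehicle (SD, n = 3 each), both among the dim levels. STAG3, at 6.79 and 6.90, did not pass (limma adjusted p 0.432).

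The promoter matches were also set beside the changes of all genes, as a description with no test. Of the 14239 genes tested that had a promoter in the table, 784 held an E2F site in at least 1 promoter, and 34.1% of them fell, against 21.9% of the 13455 without one. Falls of at least 2-fold were seen for 8.04% and 2.36%. Rises were seen for 21.2% and 24.3%. Among the 784 were E2F1, E2F2, E2F3, TFDP1 and 20 of the S phase targets, all described above. A gene with more promoters had more chances of a match, which was not adjusted for. For TTTGAA the shares that fell were 24.0% of 2240 genes with it and 22.3% of 11999 without, and 5.00% and 2.24% fell by at least 2-fold. Among the 31 S phase targets with a promoter in the table, 20 held an E2F site. Their median change was -1.63, against -1.33 for the 11 with no match. Matches on opposite strands that share bases were counted separately and occurred in 9 promoters.

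**Figure D4:**
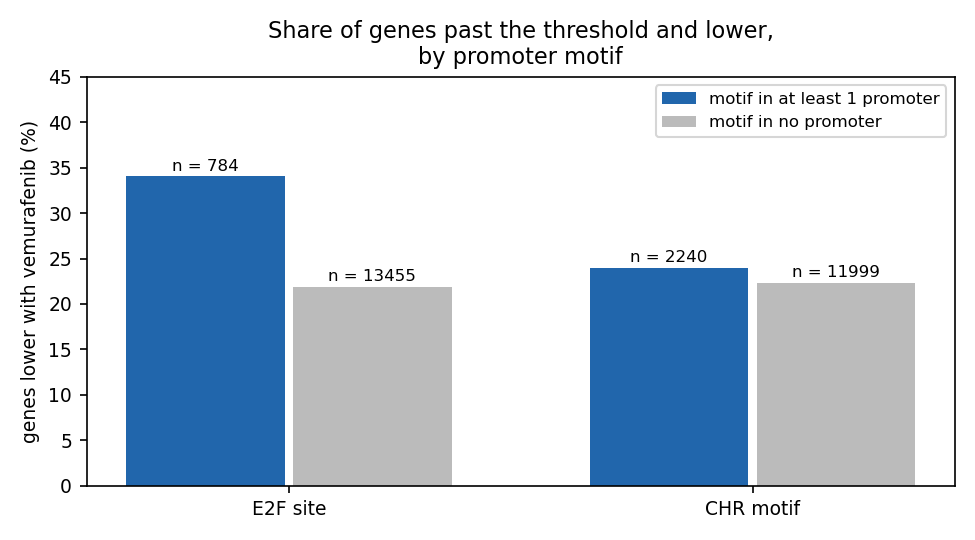
Percent of genes that passed the limma threshold and were lower with vemurafenib, for genes with (blue) and without (grey) a promoter match to the E2F site or to TTTGAA (the CHR motif), with the number of genes over each bar. The bars of the E2F site stand at 34.1% and 21.9%, those of TTTGAA at 24.0% and 22.3%.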

How the data were processed

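The authors deposited log2 levels per probe set, made with RMA and Partek per the submitters' processing notes, without versions. RMA usually subtracts background, quantile normalizes and summarizes probes, which compresses large folds and can hide a change in total RNA per cell. The genome build, the level of summarization and any batch correction: not given in the sources used here.

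The table held 33297 probe sets, of which 19460 named 1 gene, 1754 several and 12083 none in the platform annotation. By Entrez identifier 19429 matched a current gene, with 0 symbols to update. For genes with several probe sets the one with the highest mean was kept (18417 genes), with no filter on dim values. Groups came from the sample titles. limma 3.58.1 in R 4.3.3 (lmFit, eBayes, prior degrees of freedom 7.08) used the group as the only term. Tables, promoters and figures used Python 3.11.15, pandas 2.3.3, numpy 2.4.6, scipy 1.17.1 and matplotlib 3.10.9. "Dim" means within the lowest 25% of genes by mean level (up to 6.87). The median of 341 olfactory receptor genes, hardly expressed in such cells, was 5.50, and 95% of them lay up to 7.28, above the dim limit. PMAIP1 with vemurafenib (7.30) lay close to that level, so background can limit its change too.

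Genes were named by a rule: the 8 genes, the 4 largest changes in each list that passed the threshold, any gene of a list with 8 or fewer measured, and the 2 nearest profiles of each of the 8 that changed by at least 1 (log2). RYBP, MGA, L3MBTL2, HDAC2 and CBX3 fall outside it and were named after their values were seen. The members, lists and promoter motifs were chosen with earlier results of these data known. The fit was tested on simulated data. Alternatives were a block for the replicate number (fixed, or random with statmod 1.5.0), 2 other scalings, 2 filters on dim genes, averaged probe sets per gene, a fit to every probe set, weights per array, a trended and robust eBayes, a stricter threshold (0.01) and leaving out single arrays.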

Additional observations from a re-analysis of the deposited data

How the results depend on the processing

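All 8 genes kept their direction and their side of the threshold in every alternative run for them. Over these, the change ran from -1.85 to -1.75 for E2F7, -1.75 to -1.63 for E2F8, -1.72 to -1.48 for E2F1, -1.13 to -1.02 for E2F2, -0.76 to -0.62 for E2F3, -0.62 to -0.52 for E2F6, -0.60 to -0.46 for TFDP1 and 0.04 to 0.15 for TFDP2. The limma adjusted p of TFDP2 ran from 0.0610 to 0.628. Without the dimmest 50% of genes E2F2 and E2F3 were no longer tested, which left 5 genes that fell. With the replicate number as a fixed replicate block the 7 falls still passed (E2F1 limma adjusted p 6.34e-06, TFDP1 0.00117) and TFDP2 stood at 0.330, and 7606 of all genes passed, against 8371 with no block. The numbers were not shown to pair the arrays: deviations of same-numbered arrays correlated at 0.14, -0.18 and -0.25 over genes, while vemurafenib 2 with vehicle 3 and vemurafenib 3 with vehicle 2 correlated at 0.22 and 0.28. The design text pairs dishes by letters, given here for 1 array only. The replicate block, fixed or random, also ended the calls of RBBP4 (limma adjusted p 0.0646 and 0.0565), FZR1 (0.0910 and 0.0562) and L3MBTL2 (0.0638 and 0.0508), and the fixed one that of ACTB (0.0580). A repeat quantile normalization ended those of RBBP4 (0.117) and ACTB (0.0785). All genes past the threshold numbered 5960 to 9718, and 7218 to 8326 with 1 array left out. The S phase targets that fell numbered 34, or 33 without the dimmest 50% of genes, where CLSPN was no longer tested. Without the dimmest 25% or 50% of genes, the count of other E2F and DP genes that fell was 1, since TFDP3 was no longer tested. Reference genes past the threshold numbered 4, with 2 at a threshold of 0.01 or without vehicle replicate 1, 2 to 4 over the arrays left out, 3 after repeat quantile normalization, and 5, with TBP added, under median centring, array weights, trended and robust eBayes and both dim filters. The germline genes could not be counted under either dim filter, which removed all 8. Of the changes between pairs, E2F1 minus E2F2 ran from -0.69 to -0.39 with single arrays left out.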
